A study of Mus musculus with 4 samples.

Results

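The MYC network was examined in NF639 cells through its 9 genes, of 12393 that the probe sets name: Myc and Mycn, their partner Max, the MXD-family genes Mxd1, Mxd3, Mxd4 and Mxi1, and Mnt and Mga. Every probe set whose platform annotation named 1 of these genes and no other was taken, which gave 19 of the 22626 probe sets that are not array controls, and each of the 9 genes had at least 1. NF639 is an established line grown from a mammary tumour of a mouse that carried the ErbB2 (neu) oncogene under the mouse mammary tumour virus promoter, so both groups share that oncogene. The resistant group is a pool of NF639 cells resistant to the green tea polyphenol epigallocatechin 3-gallate (EGCG), with 2 arrays, and it was set against the original NF639 population, also with 2 arrays. The RNA of the 2 arrays of a group came from separate experiments per the series' design text. The dose and duration of selection, and whether EGCG was present when RNA was taken, are not stated in the labels. The resistant group is 1 pool, so the p-values below measure the spread between these arrays and not between independently selected pools.

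MYC proteins are basic helix-loop-helix leucine zipper transcription factors that bind DNA only after pairing with MAX. The pair recognises the E-box, CACGTG, near the start of many genes for growth, ribosome assembly and metabolism, and it also lowers other genes, among them inhibitors of the cell cycle. MXD proteins, MNT and MGA compete for the same partner. MXD proteins and MNT bring SIN3 and histone deacetylases to the E-box, and MGA is a DNA-binding part of a Polycomb complex.

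The promoter windows below are shown because the E-box is the site on which all members meet. RefSeq promoter windows of 300 bases (250 before to 50 after the annotated start, GRCm38.p6) were matched by symbol for 8 of the 9 members, in 10 windows. Myc itself had no window among them, so its promoter was not searched. CACGTG, which reads the same on both strands, was found in 3 of the 10 windows, those of Max, Mnt and Mxd4. It was found in 7.15% of all 32851 windows of that length and in 10.5% of the 7961 windows of genes tested here. It was found in 10 of 36 windows (27.8%) of genes known to be activated by MYC and in 3 of 14 (21.4%) of genes known to be repressed by it, from the lists described further on. The 3 member windows are followed by those of Eif4a1 and Eif4e, activated targets whose resistant arrays both lay below the original ones. They were taken from 9 activated genes with an E-box, which did not share 1 direction. By log2 difference of resistant minus original, Nme1 (0.16), Hspd1 (0.08) and Pes1 (0.06) lay above 0. Both resistant arrays of Nme1 lay above both original ones. Ldha (-0.35), Mybbp1a (-0.05) and Cdk4 (-0.01) lay below 0, and Phb was not tested. Every window shown is written 5′ to 3′ on the gene's strand with the E-box in capitals.
Max (chr12:76962199-76962498, minus strand): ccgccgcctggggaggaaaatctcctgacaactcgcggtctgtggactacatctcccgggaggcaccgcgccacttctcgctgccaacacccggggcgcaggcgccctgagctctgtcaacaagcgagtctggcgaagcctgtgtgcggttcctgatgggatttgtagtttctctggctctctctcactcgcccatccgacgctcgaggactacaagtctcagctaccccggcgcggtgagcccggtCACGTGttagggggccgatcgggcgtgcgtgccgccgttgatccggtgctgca
Mnt (chr11:74830674-74830973, plus strand): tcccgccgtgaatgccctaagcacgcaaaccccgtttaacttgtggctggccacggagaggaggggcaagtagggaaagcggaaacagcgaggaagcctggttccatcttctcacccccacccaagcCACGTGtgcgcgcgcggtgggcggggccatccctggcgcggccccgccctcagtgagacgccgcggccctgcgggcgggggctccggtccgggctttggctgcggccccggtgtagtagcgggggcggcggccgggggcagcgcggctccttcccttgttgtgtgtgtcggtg
Mxd4 (chr5:34187661-34187960, minus strand): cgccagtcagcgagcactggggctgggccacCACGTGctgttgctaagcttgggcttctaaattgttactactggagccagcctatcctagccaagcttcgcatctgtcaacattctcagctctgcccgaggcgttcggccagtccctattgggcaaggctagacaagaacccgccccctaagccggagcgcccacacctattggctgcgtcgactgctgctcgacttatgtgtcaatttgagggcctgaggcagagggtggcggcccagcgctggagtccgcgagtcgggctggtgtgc
Eif4a1 (chr11:69672374-69672673, minus strand): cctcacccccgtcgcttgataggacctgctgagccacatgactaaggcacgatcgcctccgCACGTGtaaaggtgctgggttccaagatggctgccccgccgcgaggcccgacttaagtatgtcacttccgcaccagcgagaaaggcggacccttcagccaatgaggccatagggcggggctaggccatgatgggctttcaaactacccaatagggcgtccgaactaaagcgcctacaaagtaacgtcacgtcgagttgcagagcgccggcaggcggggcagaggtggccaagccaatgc
Eif4e (chr3:138527018-138527317, plus strand): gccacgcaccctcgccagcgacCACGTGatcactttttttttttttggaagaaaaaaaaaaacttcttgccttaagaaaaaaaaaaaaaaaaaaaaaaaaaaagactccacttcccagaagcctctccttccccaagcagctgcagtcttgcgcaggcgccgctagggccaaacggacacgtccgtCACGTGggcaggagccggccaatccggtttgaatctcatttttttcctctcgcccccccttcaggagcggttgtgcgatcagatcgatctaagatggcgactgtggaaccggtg
The E-box of Max began at base 248 of its window, next to the annotated start, those of Mnt and Mxd4 at bases 128 and 32, and that of Eif4a1 at base 62. The window of Eif4e held 2, at bases 23 and 187. A match of letters does not show binding, which was not measured here.

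The deposited values are MAS5 signals, 1 intensity per probe set and array, whose mean without the lowest and highest 2% of probe sets lay between 496.8 and 497.8 on the 4 arrays, so a difference in total RNA between the groups would not be seen. Differences are log2(signal + 3) in resistant minus original cells after scaling to a common trimmed mean, and 13576 probe sets with a mean signal of at least 51.9, the 40th percentile, were tested with limma and Benjamini-Hochberg adjustment. The arrays numbered 2 stood apart from those numbered 1 in all 14 probe sets of the spiked BioB, BioC and BioD hybridisation controls, which were 1.39 to 2.46 times as bright in the resistant group and 1.39 to 2.36 times as bright in the original group. The second original array also read 4005.3 in the 5′ probe set of 18S ribosomal RNA, where both resistant arrays read 346.7 and 624.3 and the first original array 362.4. Differences are therefore also given between the arrays numbered 1 and between those numbered 2. Of 11 mammary epithelial markers, 9 lay under a signal of 51.9 on every array. Among them were Cdh1 (12.7 and 12.2 in resistant cells, 15.3 and 6.7 in original cells) and Epcam (6.7 and 1.4, against 1.9 and 3.1). The exceptions were Erbb2, the 1 marker bright enough to be tested, and Krt8, whose mean of 47.7 lay under 51.9. Most defining epithelial transcripts of the labelled breast cancer line were therefore near the floor of the arrays. The summed marker signal was 437.7 and 485.6 in resistant and 485 and 482.4 in original cells for epithelium, 10065.5 and 9466 against 9546.4 and 8021.4 for 9 fibroblast genes, 425.4 and 436.4 against 521.1 and 397.3 for 8 leukocyte genes, and 54.3 and 48.9 against 45.2 and 72.4 for 6 endothelial genes. All 6 endothelial genes and 5 of the 8 leukocyte genes, Ptprc among them, lay under 51.9 on every array, while the monocyte gene Cd14 read 194.5 and 213 in resistant and 247.4 and 221.8 in original cells. The fibroblast sums hold genes that differed in opposite directions. Of 7 tested, 4 had an unadjusted p under 0.05 (limma), against 8.09% of all 7514 genes tested. Of the 7, 1 passed, Col3a1 (log2 difference 1.99 ± 0.32, SE, with a limma adjusted p = 0.0477), against 0.319% of all genes. Col1a1 lay at 0.99 ± 0.27, Dcn at -2.15 ± 0.70 and Col1a2 at -0.62 ± 0.18. The part of any marker in the results was not tested, and fewer cells of a type and less RNA per cell cannot be told apart.

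No member of the network passed the test over all probe sets. Of the 19 probe sets, 12 were bright enough to be tested, and they covered Myc, Max, Mxd3, Mxd4, Mxi1, Mnt and Mga but neither Mycn nor Mxd1. With limma, 0 of the 12 had an adjusted p under 0.05, against 0.228% of all tested probe sets, and the smallest adjusted p was 0.647. At an unadjusted p under 0.05 there was 1 of 12, Max, or 8.33%, against 7.51% of all tested probe sets in either direction and 4.02% in that of Max, lower. Resistant and original arrays stood fully apart in 5 of the 12 (41.7%), 3 higher and 2 lower in resistant cells, against 36.1% of all tested probe sets, 17.8% higher and 18.4% lower, so these shares lay near the background. The median log2 difference was 0.11 over the 12, with 7 above 0 and 5 below, and the median size regardless of sign was 0.34, against 0.18 over all tested probe sets. These sizes were not compared at like signal. Only 3 of the 12 remained with a filter at the 60th percentile. The SE ran from 0.22 for Myc, the brightest of the 12, to 0.46 for the dimmest, an Mxd4 probe set. Whether 0.34 exceeds the size in probe sets of like signal was not tested.

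**Figure D1:**
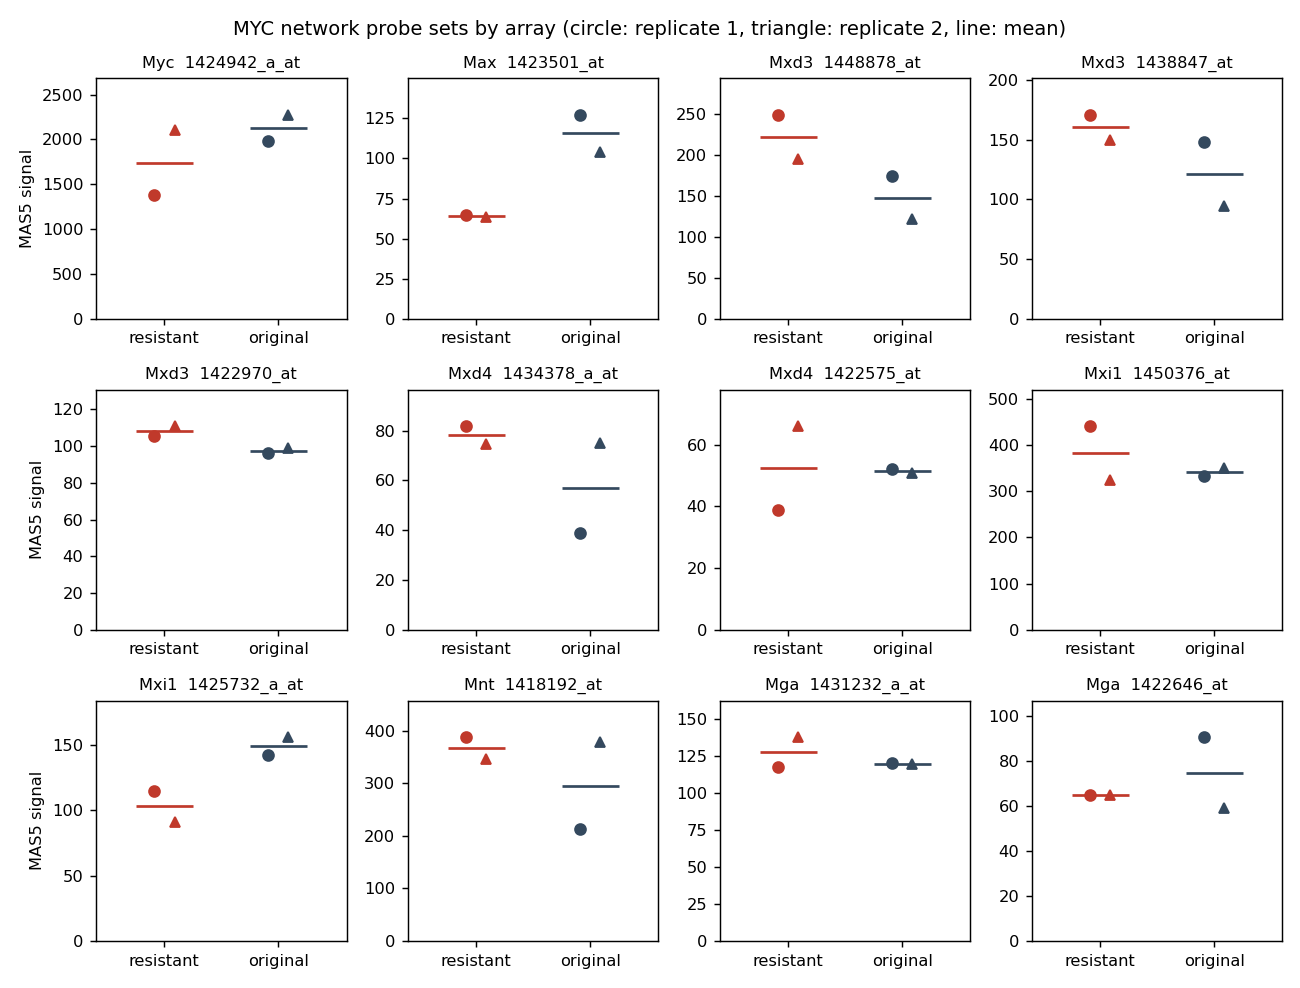
MAS5 signal (vertical axis, linear, from 0) on each array for the 12 tested MYC network probe sets, resistant cells left and original cells right, with circles for replicate 1, triangles for replicate 2 and a line at the mean. The resistant arrays lie below both original arrays for Max and for 1 Mxi1 probe set, above them for all 3 Mxd3 probe sets, and overlap them in the other 7.

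Myc was measured by 1 probe set (1424942_a_at), of the kind that binds alternative transcripts of the gene. Its signal was 1377.7 and 2104.2 in resistant cells, against 1978.9 and 2271.7 in original cells. Only the first resistant array stood low, and the second lay between the original arrays, so the groups overlapped. The means were 1741 ± 514 in resistant and 2125 ± 207 in original cells (SD, n = 2 each), a log2 difference of -0.32 ± 0.22 (SE) with a 95% interval from -0.80 to 0.16 (limma, adjusted p = 0.837). The interval holds 0, so a moderate difference could not be told from none with 2 arrays a group. The size rested on 1 array: it was -0.011 without the first resistant array and -0.62 without the second, and neither passed (adjusted p = 0.994 and 0.353 with limma). Between arrays numbered 1 the difference was -0.52 and between those numbered 2 it was -0.11, while the resistant arrays differed from each other by 0.61.

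Mycn, the paralog of Myc best known from neural development and neuroblastoma, had 3 probe sets, all too dim to be tested. Probe set 1425923_at read 49.1 and 63.8 in resistant cells, against 29.9 and 22.4 in original cells, without overlap. The other Mycn probe sets overlapped between the groups: 1417155_at read 31.9 and 4.1 in resistant and 5.7 and 11.7 in original cells, and 1425922_a_at read 2 and 6.9, against 2.5 and 19.6. The 3 probe sets therefore did not give 1 direction, at signals where MAS5 values carry large relative errors.

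Max, the shared dimer partner of the network, without which MYC proteins do not bind DNA, showed the lowest log2 difference of the 12 tested probe sets. Its 1 probe set read 64.4 and 63.4 in resistant cells, against 127.1 and 104.3 in original cells. Both resistant arrays lay below both original arrays, and the resistant arrays nearly coincided. The means were 63.9 ± 0.707 in resistant and 115.7 ± 16.1 in original cells (SD, n = 2 each), a log2 difference of -0.82 ± 0.36 (SE) with a 95% interval from -1.62 to -0.03. Its unadjusted p was 0.0438 and its adjusted p 0.647 (limma), the place 917 by p among 13576 probe sets, so it did not pass. The difference was -0.95 between arrays numbered 1 and -0.69 between those numbered 2. The resistant signals were close to the filter's signal of 51.9, and with a pseudocount of 64 the difference was -0.49.

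Mxd3, an MXD-family repressor known in mouse to be made in proliferating cells, had 3 tested probe sets, and all read higher in resistant cells with no overlap between the groups, though none passed. The probe set with the highest mean, 1448878_at, read 248.4 and 195 in resistant cells, against 173.8 and 121 in original cells, a log2 difference of 0.59 ± 0.30 (SE) with a 95% interval from -0.07 to 1.26 (limma, adjusted p = 0.729). Probe set 1438847_at read 170.7 and 150 in resistant and 147.9 and 94.3 in original cells, a difference of 0.43 ± 0.33 (SE). Probe set 1422970_at read 105.3 and 110.8 in resistant and 96 and 98.8 in original cells, a difference of 0.14 ± 0.33 (SE). The difference of 1448878_at was 0.34 without the second original array and 0.85 without the first, and the mean over the 3 probe sets was 0.39. The 3 probe sets measure 1 gene on the same arrays and are not independent. Between arrays numbered 1 the differences were 0.51, 0.20 and 0.13 in the order given, and between those numbered 2 they were 0.67, 0.65 and 0.16.

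Mxi1, an MXD-family repressor whose gene uses more than 1 start in the annotation, had 2 tested probe sets that pointed opposite ways. Probe set 1450376_at read 440.7 and 324.5 in resistant cells, against 332 and 351.2 in original cells, and the groups overlapped (log2 difference 0.15 ± 0.23, SE). Probe set 1425732_a_at read 115.1 and 90.7 in resistant cells, against 142.1 and 155.8 in original cells, with both resistant arrays lower (log2 difference -0.53 ± 0.32, SE; 95% interval from -1.23 to 0.17). Without the first resistant array the difference of 1450376_at was -0.073. Neither probe set passed (limma, adjusted p = 0.969 and 0.789), and the difference between the probe sets was not tested. RefSeq gives Mxi1 3 promoter windows, and the labels do not say which transcripts each probe set reads.

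Mxd4, an MXD-family repressor linked in mouse to differentiating cells, had 4 probe sets, of which 2 were tested. Probe set 1434378_a_at read 81.8 and 74.5 in resistant cells, against 39 and 75.1 in original cells, so that only the first original array stood apart, and its log2 difference of 0.50 ± 0.44 (SE) was 1.01 between arrays numbered 1 and -0.01 between those numbered 2, and 0.052 without the first original array. Probe set 1422575_at, whose mean signal lay at the filter, read 38.9 and 66 in resistant and 52 and 50.7 in original cells (log2 difference -0.02 ± 0.46, SE). Of the dimmer probe sets, 1434379_at read 43.1 and 38 in resistant and 6.1 and 20.3 in original cells, without overlap, and 1422574_at read 26.2 and 17.3, against 32.9 and 8.1. Neither tested probe set passed (limma, adjusted p = 0.887 and 0.999). Mxd1, the founding MXD gene, whose product replaces MYC on MAX as many cell types differentiate, had 1 probe set that read 2.9 and 3.6 in resistant and 5.7 and 6.2 in original cells. These signals lay near the floor of the arrays, and no test was made.

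Mnt, a widely made antagonist of MYC, had 1 tested probe set, 1418192_at, with signals of 387.6 and 346.8 in resistant cells, against 212.7 and 378.5 in original cells. The first original array alone stood low, and the groups overlapped. The log2 difference was 0.36 ± 0.29 (SE), with a 95% interval from -0.28 to 1.01 (limma, adjusted p = 0.877), and it was 0.86 between arrays numbered 1 and -0.13 between those numbered 2. Without the first original array the difference was -0.048. A second, dim probe set of Mnt (1418193_at) read 6.3 and 4 in resistant and 11.5 and 18.4 in original cells, the opposite direction at signals under the filter.

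Mga had 2 tested probe sets, with little difference in either. Probe set 1431232_a_at read 117.4 and 137.3 in resistant and 119.9 and 119.3 in original cells, a log2 difference of 0.08 ± 0.31 (SE), or -0.028 without the second resistant array. Probe set 1422646_at read 64.8 and 65 in resistant and 90.4 and 59 in original cells, a difference of -0.17 ± 0.41 (SE). The groups overlapped in both, and the 95% intervals, from -0.60 to 0.77 and from -1.07 to 0.74, hold moderate differences in both directions.

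**Figure D2:**
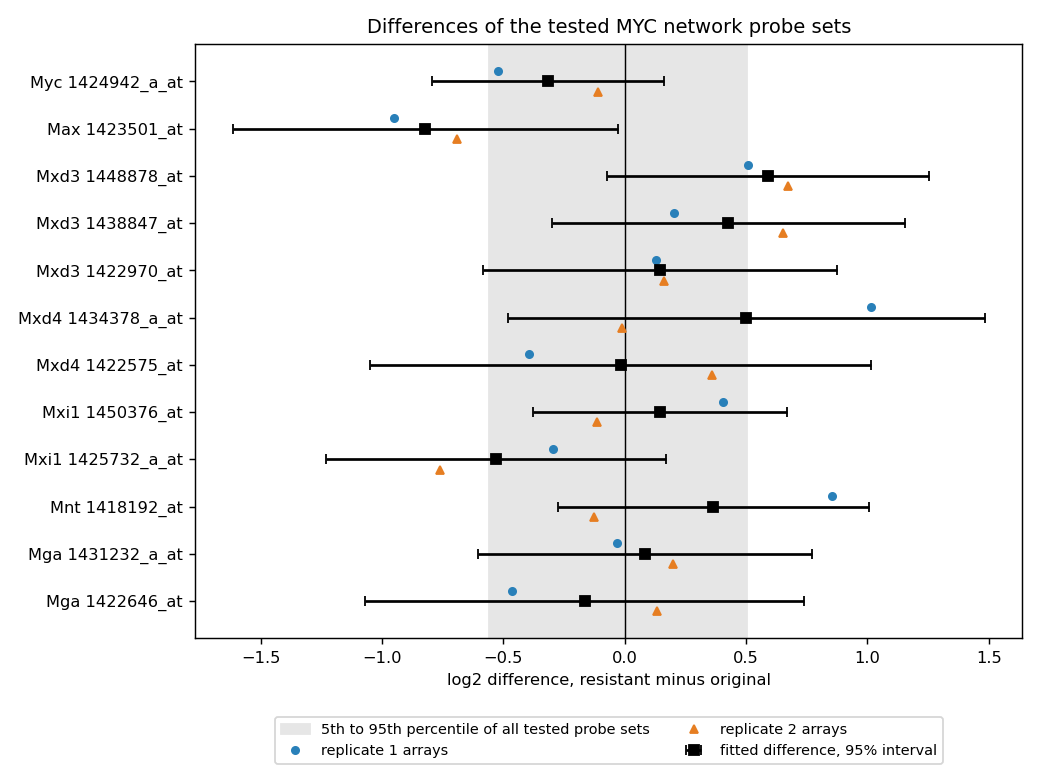
Log2 difference of resistant minus original cells (horizontal axis) for the 12 tested MYC network probe sets; black squares with bars are the fitted differences with 95% intervals, blue circles and orange triangles the differences between arrays numbered 1 and 2, and the grey band the 5th to 95th percentile of all tested probe sets (-0.56 to 0.50). The interval of Max alone leaves out 0, and the differences by array number fall on opposite sides of 0 for both Mxd4 probe sets, the first Mxi1 probe set, Mnt and both Mga probe sets.

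The genes around the network were followed in 8 lists of targets, partners and regulators, with each gene read from its tested probe set of highest mean. Of their 97 tested genes, 0 passed (limma, adjusted p under 0.05), against 0.319% of all 7514 genes tested. At an unadjusted p under 0.05 there were 10 of the 97 (10.3%), 1 higher and 9 lower in resistant cells, against 8.09% of all genes, 4.07% higher and 4.02% lower. Resistant and original arrays stood fully apart in 36 of the 97 (37.1%), 16 higher and 20 lower, against 37.3% of all genes, 19.9% higher and 17.4% lower, and the median log2 difference was 0.04, against 0.02 over all genes.

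Of the 33 tested genes known to be activated by MYC, 16 were fitted above 0 and 17 below. Their median log2 difference was -0.0014 (-0.078 to 0.088 when 1 array was left out). The groups stood apart in 9 of the 33 (27.3%), 3 higher and 6 lower, against 37.3% of all genes, 19.9% higher and 17.4% lower. At an unadjusted p under 0.05 (limma) there were 0 of the 33, against 8.09% of all genes. The 4 with the smallest p were Eif4a1 and Eif4e, the helicase and the cap-binding subunit that start translation, Bop1, a ribosome assembly factor, and the cyclin gene Ccnd2. Eif4a1 read 7908.6 and 9618 in resistant and 10616.7 and 12072.7 in original cells (log2 difference -0.38 ± 0.18, SE), and Eif4e read 2810.1 and 3408.8, against 3779.2 and 4106.5 (-0.35 ± 0.17, SE). Both resistant arrays lay below both original arrays for each. Bop1 ran the other way, at 2039.8 and 3188.1 in resistant and 1886.3 and 1872 in original cells (0.44 ± 0.21, SE). Ccnd2 read 30.9 and 42.2 in resistant and 86.4 and 59.4 in original cells (-0.93 ± 0.46, SE), with resistant signals under the filter. The adjusted p of these 4 genes ran from 0.701 to 0.712 (limma).

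Known repressed targets of MYC, of which 12 were tested, had a median log2 difference of 0.02, with 6 above 0 and 6 below. That median rested on single arrays: it was -0.43 without the second resistant array, -0.24 without the first original array, -0.075 without the first resistant array and 0.20 without the second original array. Gadd45b, a stress-response gene, read 1636.1 and 1684.8 in resistant and 2500.5 and 2097.6 in original cells (-0.46 ± 0.17, SE), and Thbs1, the matrix protein thrombospondin, read 4442.9 and 3195.8, against 7995 and 4648.8 (-0.69 ± 0.26, SE). Both were lower on both resistant arrays, and neither passed (limma, adjusted p = 0.547 and 0.554). Cdkn1a, the inhibitor p21 of cyclin-dependent kinases, read 1630 and 1808.4 in resistant and 966.3 and 1743.4 in original cells, so that only the first original array stood apart (0.40 ± 0.25, SE). Ndrg1 read 350.2 and 457.9 in resistant and 370.5 and 788.5 in original cells, where the second original array stood high (-0.43 ± 0.32, SE).

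Among the corepressor genes of MXD and MNT, Sap30, a subunit of the SIN3 and histone deacetylase complex, had the smallest unadjusted p of all 8 lists (0.000551) but did not pass (limma, adjusted p = 0.121). It read 430.1 and 379.3 in resistant cells, against 734.9 and 1125.6 in original cells. Both resistant arrays lay well below both original arrays, with a log2 difference of -1.17 ± 0.24 (SE), -0.77 between arrays numbered 1 and -1.56 between those numbered 2. The other 7 tested corepressor genes lay between -0.07 and 0.19, and next by p came Rbbp4 (0.19 ± 0.17, SE), a histone-binding subunit, Suds3 (0.11 ± 0.19), which links SIN3 to its deacetylases, and the deacetylase gene Hdac1 (-0.07 ± 0.17). The list's median was 0.06 over 8 genes.

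MLX, a MAX-like protein, pairs with MLXIP and with some MXD proteins and MNT, which joins a nutrient-sensing arm to the network. Mlx read 379.9 and 340 in resistant cells, against 530 and 471.2 in original cells (log2 difference -0.47 ± 0.21, SE), and Mlxip read 219.6 and 205.7, against 292.7 and 310.1 (-0.50 ± 0.24, SE). Both genes were lower on both resistant arrays, with like differences between arrays numbered 1 (-0.48 and -0.41) and 2 (-0.47 and -0.59), and neither passed (limma, adjusted p = 0.653 and 0.701). Of the arrestin-family targets of the MLX arm, Arrdc4 read 352.4 and 281.3 in resistant and 209.8 and 174 in original cells (0.71 ± 0.26, SE; limma, adjusted p = 0.537), and Txnip overlapped between the groups, at 670.5 and 501.9, against 826.8 and 343.1. The 4 tested genes of this arm had a median of -0.18, which was 0.18 without the first original array, -0.48 without the second, -0.32 and -0.034 without the first and second resistant arrays, and 0.12 without the filter on dim probe sets.

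Regulators of the Myc transcript had a median log2 difference of 0.00 over 10 tested genes, 5 above 0 and 5 below. Fubp1, which binds a melted DNA element upstream of MYC and drives its transcription, read 502.1 and 640.1 in resistant cells, against 928.1 and 909.3 in original cells (-0.69 ± 0.20, SE; limma, adjusted p = 0.333). Igf2bp1, which shields the Myc transcript from decay, read 235.8 and 329.2, against 414.9 and 508 (-0.72 ± 0.25, SE; limma, adjusted p = 0.502). Both resistant arrays lay below both original arrays for each of these positive regulators, which were named for their small p. In the list the groups stood apart in 5 of 10 genes (50%), 1 higher and 4 lower. The share over all genes was 37.3%, 19.9% higher and 17.4% lower. Cnbp (0.10), Elavl1 (0.14), Pvt1 (0.07) and Hbp1 (0.04) lay above 0 with overlapping groups, and Hnrnpk (-0.145) and Ybx1 (-0.04) below. Puf60, a repressor that acts on the FUBP1 element, read 3201.9 and 3463.1 in resistant and 2783.3 and 2963.6 in original cells (0.21 ± 0.16, SE), and the insulator protein gene Ctcf 1051.7 and 889.1, against 1084.8 and 1098.5 (-0.18 ± 0.18, SE).

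Genes for the turnover of MYC protein had a median of 0.06 over 12 tested genes. Aurka, a mitotic kinase whose product stabilises N-MYC, read 1104.8 and 1467 in resistant and 1606.2 and 1971.9 in original cells (-0.48 ± 0.20, SE), and Ppp2r5a, a regulatory subunit of the phosphatase PP2A, read 686.3 and 608.1, against 844.2 and 960.3 (-0.48 ± 0.19, SE). In both the resistant arrays were the lower ones, and neither passed (limma, adjusted p = 0.605 and 0.576). The deubiquitinase gene Usp7 (0.31 ± 0.16, SE) and Axin1, a scaffold for MYC degradation (0.32 ± 0.19), had both resistant arrays above both original arrays. MYC cofactors had a median of 0.05 over 11 tested genes, 8 of them above 0. Trrap, the scaffold of MYC-bound histone acetyltransferases, read 447.3 and 486.6 in resistant and 659.6 and 681.8 in original cells. It was lower on both resistant arrays (-0.52 ± 0.19, SE) and did not pass (limma, adjusted p = 0.554). The acetyltransferase gene Kat2a (0.22 ± 0.17, SE), the elongation kinase gene Cdk9 (0.16 ± 0.16) and the gene of its cyclin, Ccnt1 (0.21 ± 0.22), lay above 0. Genes of the MGA complex had a median of -0.04 over 7, and none of Yaf2 (0.38 ± 0.20, SE), Ring1 (0.33 ± 0.29), Pcgf6 (-0.26 ± 0.19) and Rnf2 (-0.22 ± 0.21) passed.

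**Figure D3:**
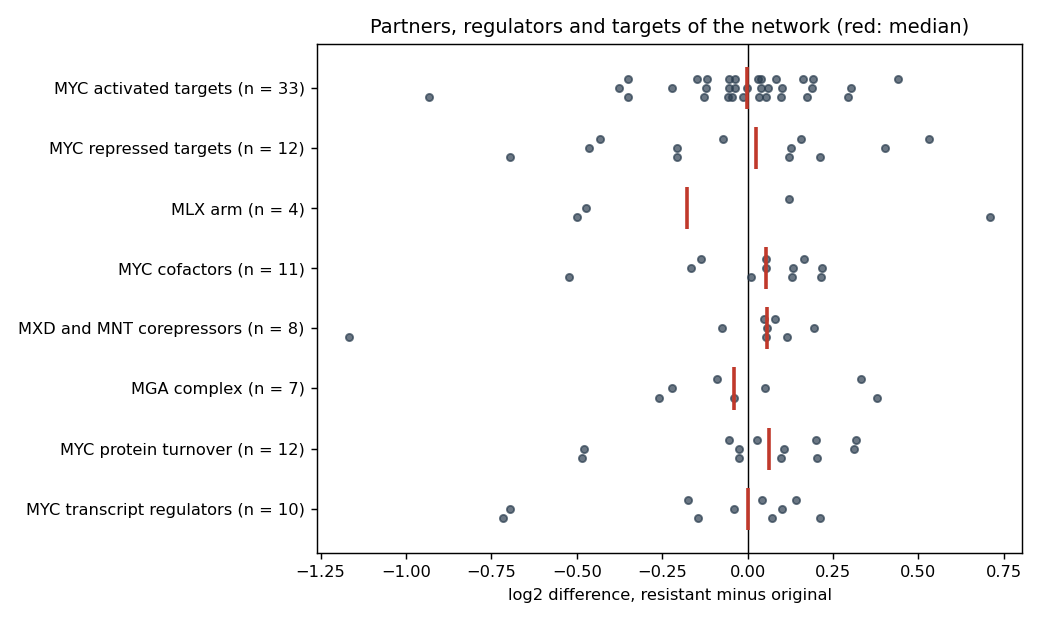
Log2 difference of resistant minus original cells (horizontal axis) for each tested gene of the 8 lists of partners, regulators and targets; each point is a gene and the red line the list's median. The medians lie between -0.18 and 0.06, and Sap30 at -1.17 lies farthest from 0.

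The genes whose pattern over the 4 arrays was nearest to that of Myc were Ajuba, Capn1 and Nme6, by the Euclidean distance between mean-centred log2 values (0.04, 0.05 and 0.07) among 7513 other genes. Ajuba read 1935.3 and 2870.2 in resistant and 2782 and 3181.1 in original cells, Capn1 199.1 and 311.8, against 302.6 and 335.4, and Nme6 195.6 and 292.7, against 278.6 and 336.8. Like Myc, each had its lowest value on the first resistant array and its highest on the second original array. A likeness over 4 arrays is a description of those arrays only.

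Myc lies on chromosome 15, where most tested genes read higher in resistant cells: 261 of 305 were fitted above 0, with a median log2 difference of 0.29. Over all genes tested, 3963 of 7514 (52.7%) were fitted above 0, with a median of 0.02. Of the 10 tested protein-coding genes nearest on each side of Myc, 16 of 20 were above 0, with a median of 0.26 and a range from -0.43 for Ndrg1 to 1.15 for Has2, and 0 of the 20 passed (limma). The nearest tested protein-coding neighbours, Trib1 (0.48 ± 0.29, SE) and Cyrib (-0.12 ± 0.16, SE), lay on opposite sides of 0. Myc itself, at -0.32, was fitted lower than every one of these neighbours except Ndrg1, a difference that was not tested. These neighbours were named after their values were seen.

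**Figure D4:**
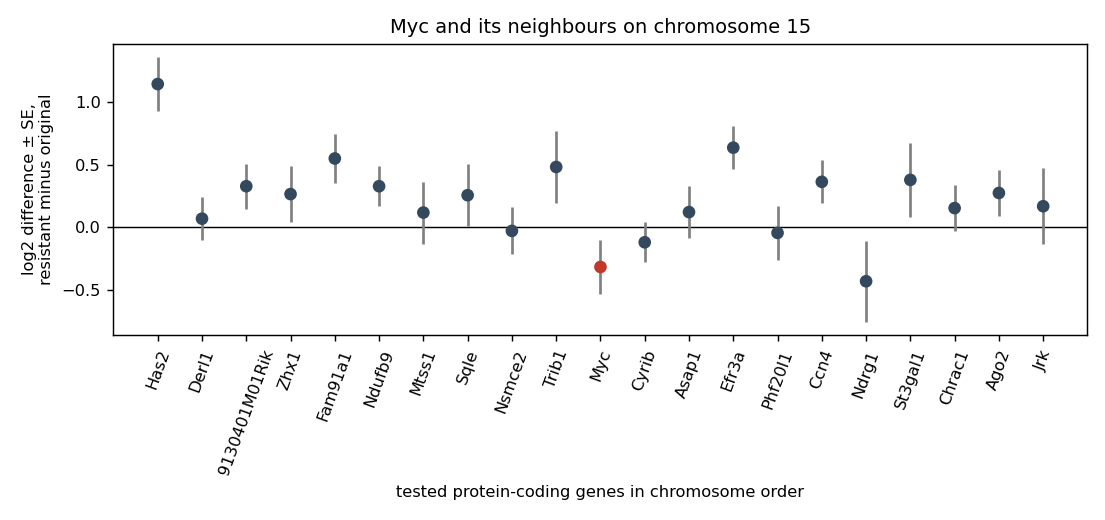
Log2 difference of resistant minus original cells with its SE (vertical axis) for Myc (red) and the 10 tested protein-coding genes on each side of it, in chromosome order. Of the 20 neighbours 16 lie above 0, and Myc lies at -0.32.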

How the data were processed

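RNA from 4 NF639 cultures was hybridised to Affymetrix Mouse 430A 2.0 arrays. The deposited intensities are MAS5 signals on a linear scale, per the submitters' processing notes; no version of it is named, and present or absent calls were not used. Signals ran from 0.1 to 25919.2. Arrays give no counts, so their number limits the precision.

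Of 22690 probe sets, 64 controls were left out of the tests. The platform annotation named a single gene for 20393 probe sets. It gave several symbols for 691 and none for 1606, and these named no gene. Of the 20393, 20364 matched the GRCm38.p6 gene table, used for names and gene order. Signals were scaled to a common 2% trimmed mean, log2(signal + 3) was taken, which understates differences of dim genes, and probe sets with a mean under the 40th percentile were left out. The difference of resistant minus original was fitted with limma 3.58.1 under R 4.3.3 (eBayes with a trend, two-sided, Benjamini-Hochberg over 13576 probe sets, threshold 0.05). The procedure was tested on simulated data.

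The members and lists were chosen with earlier results of these data known. Of 114 list entries 97 were tested genes; the entry Mondoa is another name of Mlxip. All members were named, with every passing gene of a list, up to 4 further genes by smallest p, and the 3 genes nearest to Myc. Alternatives were other pseudocounts, filters, scalings and variance models, a replicate block, leaving out each array, and averaging probe sets.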

Additional observations from a re-analysis of the deposited data

How the results depend on the processing

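Of the 12 tested MYC network probe sets (19 without the filter, 3 with a filter at the 60th percentile), 0 passed in limma under any alternative run, with 0 to 3 at an unadjusted p under 0.05. Over all probe sets 31 passed (12 higher, 19 lower); the count was 5 without the filter, 11 with a filter at the 60th percentile, 5 without a variance trend, 8 with quantile normalization (1 higher, 7 lower), and 81 to 125 when 1 array was left out. The labels state no pairing of arrays by replicate number, but deviations of same-numbered arrays correlated at 0.35 across probe sets. Arrays of different groups correlated at 0.971 and 0.969 with the same number, against 0.961 and 0.963 with different numbers. With the replicate block 740 probe sets passed in limma (320 higher, 420 lower) but 0 of the network, whose smallest adjusted p was 0.181 for Max. The Myc difference ran from -0.62 to -0.011 when 1 array was left out, and was -0.32 with the block (adjusted p = 0.279). The Max difference ran from -0.96 to -0.49 over 13 alternatives (adjusted p from 0.181 to 0.935). The sign turned when 1 array was left out for Mxi1 (-0.073 without resistant replicate 1, up to 0.36), Mnt (-0.048 without original replicate 1, up to 0.78) and Mga (-0.028 without resistant replicate 2, up to 0.19), and with probe sets averaged for Mxi1 (-0.19) and Mga (-0.041); none of these differences had passed, and the cause was not tested. Of 112 list medians under alternatives, 96 moved by less than the spread between arrays. Without a variance trend or with the replicate block the fitted differences stay the same, so those medians could not move. Nearly all of the 16 that moved by more did so when 1 array was left out, and the rest with another filter. Outside the repressed targets and the MLX arm, list medians stayed between -0.12 and 0.14 when 1 array was left out; those of the activated targets, the transcript regulators and the MGA complex turned sign within that range. Dim probe sets (Mycn, Mxd1 and some of Mxd4 and Mnt) limit what can be said of those genes.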
